A study of Mus musculus with 6 samples.

Results

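The primary cilium is a microtubule-based antenna on the surface of most tubular epithelial cells. Proteins enter and leave it through the transition zone, a gate at its base made of the MKS, tectonic and nephronophthisis proteins, and they travel along it by intraflagellar transport (IFT), in which the IFT-B complex moves outward with kinesin-2 motors and the IFT-A complex returns with the dynein-2 motor. Mutations in these genes cause nephronophthisis, Meckel and Joubert syndromes and short-rib skeletal dysplasias, in which kidneys are often cystic or fibrotic. The genes described here are 39 of the 24422 in the count tables, chosen by name. They are 14 listed as nephronophthisis genes, and further genes of the transition zone, of IFT and of its motors. By role, 13 encode transition zone proteins, 10 IFT-B proteins, 5 IFT-A proteins, 4 motor subunits, 3 proteins of the inversin compartment just above the gate, 2 centrosome or basal body proteins and 2 nuclear factors. All 39 were in the tables and had enough reads to be tested.

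RNA was measured in 6 whole kidneys of C57BL/6 mice at postnatal day 13 on a diet with 220 ppm iron, 3 Control kidneys with the genotype label wild type and 3 TfR1 knockout kidneys labelled Tfr1f/f;SixCre. TfR1 is the transferrin receptor, encoded by Tfrc, and the study targets it with Six2CreEGFP, which is active in the progenitors of the nephron but not in the collecting duct, stroma or vessels. The study also describes nephron cells that escaped deletion, so a knockout kidney is a mixture. Whether Control mice carried floxed or Cre alleles is not given in the labels. Normalized counts are raw counts divided by the library's size factor. In a whole-kidney library, fewer cells of a type and less RNA per cell cannot be told apart.

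Tfrc had 5534, 6485 and 3667 normalized counts in Control kidneys 1 to 3 and 6976, 4045 and 5898 in TfR1 knockout kidneys 1 to 3, a change that did not pass (adjusted p 0.853, DESeq2). Counts over the whole gene include exons outside the floxed ones, so this check says nothing about the labels. Totals ran from 16591156 to 22898008 counts per library. Control kidney 3 stood apart in its summed cell type markers: it had 45859 normalized counts over 4 thick ascending limb genes against 83200 and 91095 in the other Control kidneys, and 130981 over 6 stromal genes against 67704 and 65365. Markers of all kidney cell types looked for were detected in every library, including 5 podocyte genes that summed to between 10387 and 17931.

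Most promoters of the transition zone genes held one motif. The window searched ran from 250 bases before the gene's start to 50 after it (RefSeq, GRCm38.p6), and 32 of the 39 genes had one. Glis2, Sdccag8, Tmem67, Anks6, Ift80, Ift81 and Ift122 did not. The motif was a form of the X-box, the element bound by RFX factors at many ciliary genes. It was spelled GTTNCC, then any 2 bases, then GGNAAC, an inverted repeat that reads alike on both strands, and at most 1 of its 10 fixed letters was allowed to differ. It was found at 9 of 32 genes (28.1%), against 2.89% of the 27025 genes in the promoter table. Of the 9, 8 were among the 12 transition zone genes with a promoter, and 1, Ift57, was among the 20 others. Only Tctn1 and Mks1 held it with no mismatch, which 0.529% of all genes did. This spelling was chosen after several had been tried on these promoters, so the shares are a description. The sites are given with genome coordinates and 5′ to 3′ on the gene's strand, with the motif in capitals, because 8 of the 9 lie at genes of the gate.
Mks1, chr11:87853183-87853212, plus strand: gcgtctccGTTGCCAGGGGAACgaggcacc
Tctn1, chr5:122264411-122264432, minus strand: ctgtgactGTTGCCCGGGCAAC
Tctn2, chr5:124598679-124598708, plus strand: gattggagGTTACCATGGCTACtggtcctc
Nphp4, chr4:152477903-152477932, plus strand: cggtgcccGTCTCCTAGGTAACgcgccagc
Tmem231, chr8:111933781-111933810, minus strand: cgccgtcgGTTGCCGTGGAGACtcggcgct
B9d1, chr11:61505130-61505159, plus strand: taccgtctGTTTCCAAGACAACcgagagcc
B9d2, chr7:25680788-25680817, plus strand: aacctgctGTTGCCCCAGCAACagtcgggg
Tmem216, chr19:10555723-10555752, minus strand: tgtacgcaGTTTCCATGGGGACtgaacatg
Ift57, chr16:49699199-49699228, plus strand: cgggtctgGTTGCCGTGGTGACcggctgcc

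The motif began 24 bases before the start of Mks1, 62 before that of Tctn2 and 231 before that of Nphp4, and 36 bases after the start of Tctn1. The shorter motif GTTGCC, which overlaps the longer one, was found on either strand at 17 of 32 genes (53.1%), against 14.1% of all genes. Set against the expression data, the longer motif was at 3 of 9 genes that were called lower in TfR1 knockout kidneys (B9d1, B9d2 and Tmem216) and at 6 of 23 that were not, and the shorter motif was at 5 of 9 and 12 of 23.

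The comparison asked how transcripts of the ciliary gate and of its transport system differed between TfR1 knockout and Control kidneys. At a DESeq2 adjusted p under 0.05, 13 of the 39 genes were lower in TfR1 knockout kidneys and 0 were higher. Over all 16509 genes tested, 7.18% were lower and 7.74% higher at that threshold. With a fold change of at least 2 as well, Ift80, Glis2 and Cep290 were lower (3 of 39) and 0 were higher, against 4.46% and 4.41% of all genes. The fitted log2 fold change was below 0 for 36 of 39 genes, against 49.3% of all genes, and its median was -0.44, against 0.01. The 26 genes that did not pass ran from -0.95 to 0.29. Every TfR1 knockout kidney was below every Control kidney for 21 of 39 genes and above for 1, Kif3b, where 16.9% of all genes were below and 16.9% above.

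The number of calls depended on the test, while 36 of the 39 genes had a log2 fold change below 0 with each of the 3 tests. edgeR's quasi-likelihood test called 2 of the 39 genes at an adjusted p under 0.05, Ift80 and Wdr35, where it called 2.8% of all genes lower. Its adjusted p for the 13 genes ran from 0.0113 to 0.117. At an unadjusted p under 0.05, 18 of the 39 were lower with edgeR and 20 with DESeq2. Over all genes tested, 1985 of 15308 were lower at that threshold with edgeR and 2227 of 16509 with DESeq2. limma-voom called Ift80, Wdr35, Ift88 and Rpgrip1l, where it called 2.98% of all genes lower. Ift80, Wdr35 and Ift88 passed with DESeq2 whichever library was left out.

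**Figure D1:**
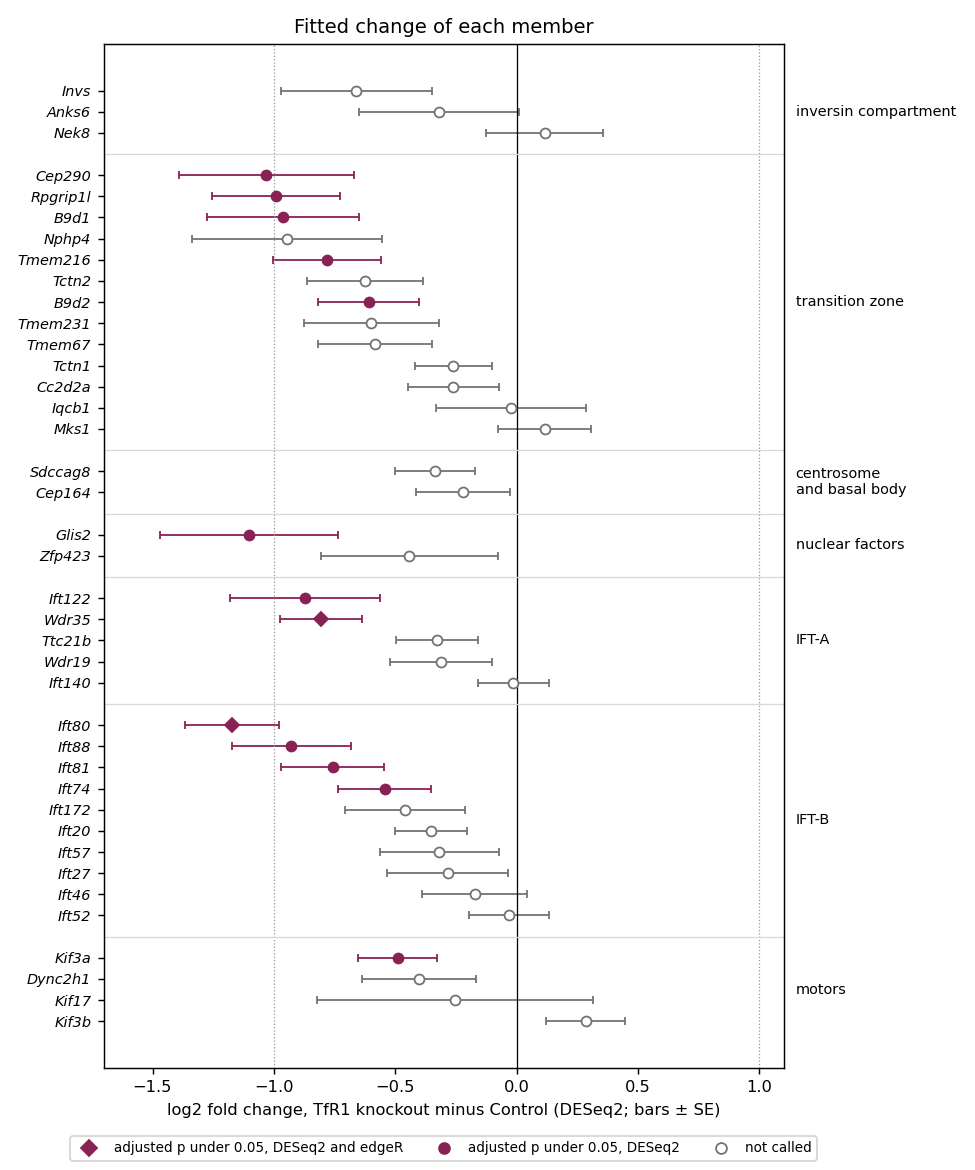
Fitted log2 fold change (x axis, TfR1 knockout minus Control, DESeq2, bars ± SE, 3 kidneys per group) of each of the 39 genes, ordered by role; filled symbols passed an adjusted p under 0.05 and diamonds passed with edgeR too. Most points lie left of 0, 13 are filled and 2 of these, Ift80 and Wdr35, are diamonds; dotted lines mark a 2-fold change.

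The shift was present in each TfR1 knockout kidney. The median over the 39 genes of the log2 ratio to the Control mean was -0.33, -0.67 and -0.56 in TfR1 knockout kidneys 1 to 3, while the median over all tested genes was 0.00, 0.00 and 0.01. Each Control kidney was set against the mean of the other 2, and its median was 0.02, 0.05 and -0.03. TfR1 knockout kidney 2 was the lowest library for 22 of 39 genes, kidney 3 for 9 and kidney 1 for 5. Kidney 2 also had the lowest size factor (0.782), the highest summed level of 4 principal cell genes (58350, against 24812 and 30505 in the other knockout kidneys) and the lowest of 6 stromal genes (33079, against 65104 and 56204), whose part in the order of the 3 kidneys was not tested.

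**Figure D2:**
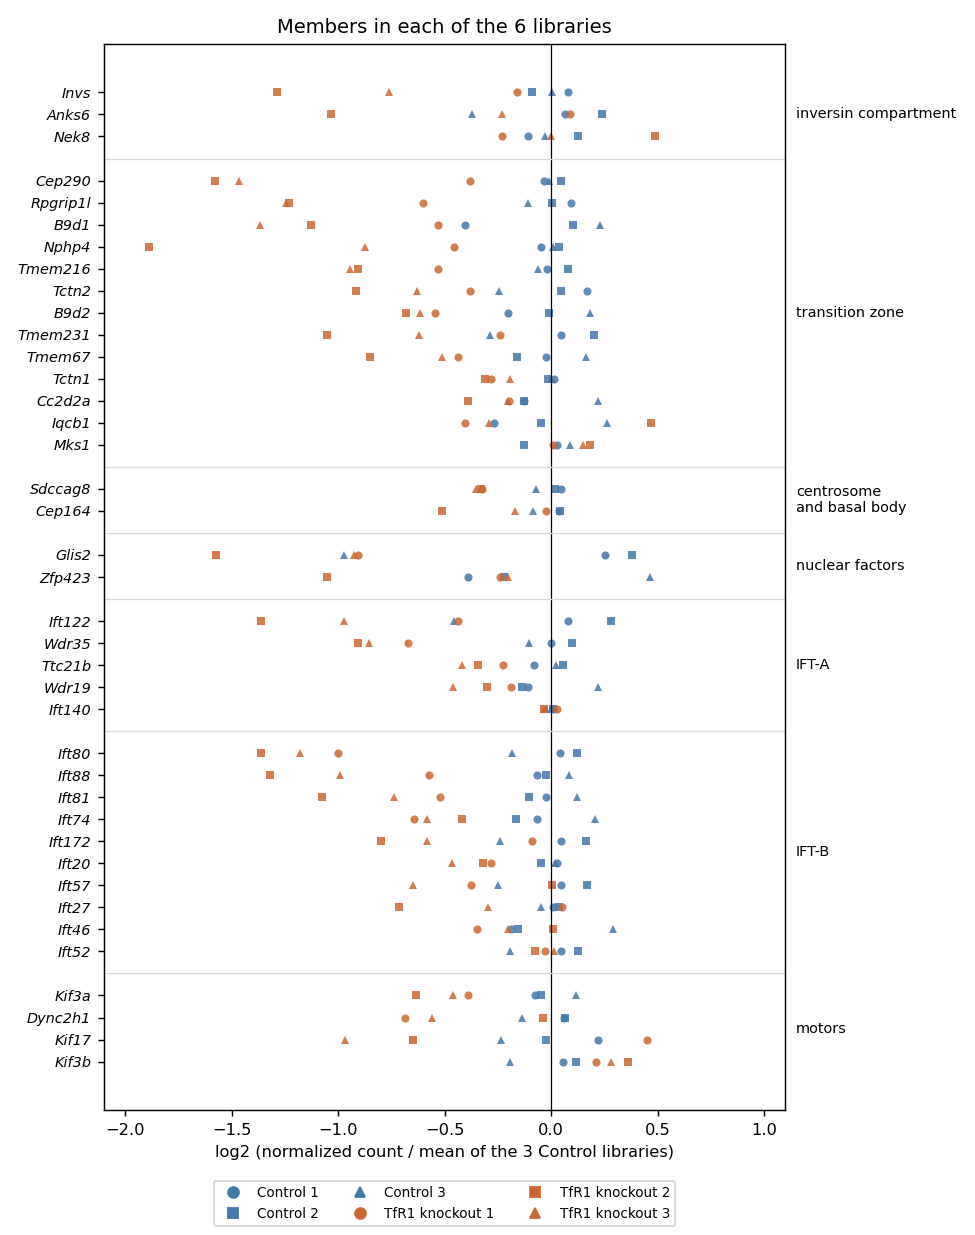
Each gene's normalized count in each of the 6 libraries as a log2 ratio (x axis) to the mean of the 3 Control libraries, with blue for Control and orange for TfR1 knockout and a symbol for each replicate. For 21 genes all 3 orange points lie left of all 3 blue points; TfR1 knockout kidney 2 (orange squares) is the lowest point for 22 genes.

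In the transition zone 5 of 13 genes were lower with DESeq2, 0 with edgeR and 1 with limma-voom, against 7.18%, 2.8% and 2.98% of all genes. The median log2 fold change of the 13 was -0.61. At an unadjusted p under 0.05, 9 of the 13 were lower with edgeR, against 1985 of all 15308 genes. Rpgrip1l (mm9 chr8:93740929-93837161), which encodes a scaffold that other gate proteins need for assembly, had 282, 265 and 245 normalized counts in Control kidneys 1 to 3 and 174, 113 and 112 in TfR1 knockout kidneys 1 to 3. The groups did not overlap, and TfR1 knockout kidney 1 was the closest to Control. Its level was 50.3% of Control (log2 fold change -0.99, SE 0.26, DESeq2 adjusted p 0.00271, edgeR 0.0569), and the call was lost without Control kidney 1 or without TfR1 knockout kidney 3, in a range of -1.24 to -0.88. Cep290 (chr10:99950923-100036289), whose protein links the microtubules of the gate to the membrane, had 242, 256 and 246 counts in Control and 191, 83.2 and 89.9 in TfR1 knockout kidneys. The Control values had an SD of 7.15 counts, while TfR1 knockout kidney 1 stood well above the other knockout kidneys. The log2 fold change was -1.03 (SE 0.36, DESeq2 adjusted p 0.033, edgeR 0.117) and grew to -1.52 without TfR1 knockout kidney 1. That was the only one of 6 fits without a library in which Cep290 was called, and the change nearest 0 in the 6 fits was -0.82. Of its exon bases, 9.69% also lie in 4930430F08Rik.

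B9d1 and B9d2 encode B9 domain proteins that bind Mks1 in the same gate complex. B9d1 (chr11:61318646-61326433) had 233, 330 and 361 counts in Control kidneys and 213, 141 and 119 in TfR1 knockout kidneys. TfR1 knockout kidney 1 and Control kidney 1 came close without overlap. The log2 fold change was -0.96 (SE 0.31, DESeq2 adjusted p 0.0195, edgeR 0.0918). Without single libraries it ran from -1.24 to -0.79, and the call held only without Control kidney 1 or TfR1 knockout kidney 1. B9d2 (chr7:26466177-26471577) had 250, 285 and 326 counts in Control and 197, 179 and 187 in TfR1 knockout kidneys, again without overlap. Its log2 fold change was -0.61 (SE 0.21, DESeq2 adjusted p 0.0279, edgeR 0.0972), and it ran from -0.71 to -0.51 and passed in 0 of the 6 fits that left out a library. Their partner Mks1 was the highest of the role, with a mean ± SD (n = 3) of 223 ± 17.1 counts in Control and 242 ± 15.2 in TfR1 knockout kidneys, a log2 fold change of 0.12 (SE 0.19, DESeq2 adjusted p 0.75).

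Tmem216 (chr19:10608355-10630728), which encodes a small membrane protein of the gate, had 261, 279 and 253 counts in Control kidneys and 183, 141 and 137 in TfR1 knockout kidneys. The groups were well apart. Its log2 fold change was -0.78 (SE 0.22, DESeq2 adjusted p 0.00558, edgeR 0.0654), from -0.93 to -0.70 without single libraries, and the call was lost without Control kidney 1, Control kidney 2 or TfR1 knockout kidney 3. It shares 8.55% of its exon bases with Cpsf7. The other 8 transition zone genes did not pass and ran from -0.95 to 0.12. They were Nphp4, Tctn1, Tctn2, Cc2d2a, Tmem67, Tmem231, Iqcb1 and Mks1. Over the whole role, every TfR1 knockout kidney was below every Control kidney for 10 of 13 genes, against 16.9% of all genes.

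Nphp4, a nephronophthisis gene of the gate, had the second lowest level per kilobase of exon of the 39 genes, 13.6 normalized counts per kb. At 109 ± 3.2 counts in Control and 56.2 ± 25.2 in TfR1 knockout kidneys, its log2 fold change of -0.95 had an SE of 0.39 (DESeq2 adjusted p 0.0848, edgeR 0.163). Without TfR1 knockout kidney 1 it passed, at -1.27. Iqcb1, which lies 4.22 Mb from Tfrc on chromosome 16, had a log2 fold change of -0.02. Ift57 and Glis2 are on that chromosome too, 17.1 and 28 Mb from Tfrc, with log2 fold changes of -0.32 and -1.10.

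Of the 15 IFT genes, 6 were lower and 0 higher with DESeq2, against 7.18% and 7.74% of all genes. edgeR called 2 lower and limma-voom 3, against 2.8% and 2.98% of all genes. All 15 had a log2 fold change below 0, against 49.3% of all genes, with a median of -0.35. In the IFT-B complex 4 of 10 were lower with DESeq2, 1 with edgeR and 2 with limma-voom. Ift80 (chr3:68696421-68808492), mutated in a short-rib thoracic dysplasia, had the lowest log2 fold change of all 39 genes. It had 813, 860 and 694 counts in Control kidneys 1 to 3 and 395, 307 and 348 in TfR1 knockout kidneys 1 to 3. The highest knockout value was far below the lowest Control value. Ift80 stood at 44.4% of Control (log2 fold change -1.17, SE 0.19, DESeq2 adjusted p 9.26e-08, edgeR 0.0113). Leaving out single libraries moved the fold change between -1.27 and -1.08.

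Ift88 (chr14:58042899-58136773), the gene of the orpk mouse with polycystic kidneys and short cilia, had 446, 459 and 495 counts in Control and 313, 187 and 235 in TfR1 knockout kidneys. The groups did not overlap. Its log2 fold change was -0.93 (SE 0.24, DESeq2 adjusted p 0.00247, edgeR 0.0525, limma-voom 0.0425). In tubules of this knockout, cystic or not, the study measured longer cilia at a slightly later age, unlike the orpk mouse.

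Ift81 and Ift74 encode partners whose pair carries tubulin. For Ift81 (chr5:123000213-123064527) Control kidneys had 586, 555 and 649 counts and TfR1 knockout kidneys 416, 283 and 359, a log2 fold change of -0.76 (SE 0.21, DESeq2 adjusted p 0.00526, edgeR 0.0566). For Ift74 (chr4:94281182-94359920) the counts were 528, 494 and 638 in Control and 354, 415 and 370 in TfR1 knockout kidneys, a log2 fold change of -0.54 (SE 0.19, DESeq2 adjusted p 0.0362, edgeR 0.0889). Neither gene overlapped between groups. TfR1 knockout kidney 2 was the lowest of the 6 for Ift81 and the highest knockout kidney for Ift74. The call of Ift81 was lost without Control kidney 1 or TfR1 knockout kidney 3 (range -0.89 to -0.62), and that of Ift74 held only without TfR1 knockout kidney 2 (range -0.63 to -0.43). The other 6 IFT-B genes did not pass and ran from -0.46 for Ift172 to -0.03 for Ift52. Ift52 was nearly level at 833 ± 92.8 counts in Control and 817 ± 25 in TfR1 knockout kidneys (DESeq2 adjusted p 0.933).

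In the IFT-A complex 2 of 5 genes were lower with DESeq2, 1 with edgeR and 1 with limma-voom, against 7.18%, 2.8% and 2.98% of all genes. Wdr35 (chr12:8980698-9035653), which encodes IFT121, had 731, 784 and 681 counts in Control kidneys and 460, 390 and 405 in TfR1 knockout kidneys. The groups were far apart, with SDs of 51.5 and 37. Wdr35 stood at 57.2% of Control (log2 fold change -0.81, SE 0.17, DESeq2 adjusted p 5.89e-05, edgeR 0.0235). Ift122 (chr6:115803488-115876717) had 959, 1101 and 661 counts in Control and 670, 353 and 463 in TfR1 knockout kidneys. TfR1 knockout kidney 1 lay just above Control kidney 3, so the groups overlapped. Its log2 fold change was -0.87 (SE 0.31, DESeq2 adjusted p 0.0367, edgeR 0.109). It ran from -1.15 to -0.68 without single libraries, and the call held only without Control kidney 3 or TfR1 knockout kidney 1. Ift140, another subunit of the same complex, was the highest of the 5, at 553 ± 7.28 counts in Control and 548 ± 13.8 in TfR1 knockout kidneys (log2 fold change -0.01, SE 0.15, DESeq2 adjusted p 0.967). Ttc21b and Wdr19, both nephronophthisis genes, did not pass. Every TfR1 knockout kidney was below every Control kidney for each, as was so for 16.9% of all genes.

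Within each IFT complex, called genes stood beside genes near their Control level. The ratio of raw counts of 2 genes in 1 library needs no normalization. Ift80 had between 0.944 and 0.951 reads per read of Ift52 in Control kidneys and between 0.388 and 0.484 in TfR1 knockout kidneys. Wdr35 had between 1.25 and 1.41 reads per read of Ift140 in Control and between 0.723 and 0.817 in knockout kidneys. These pairs, and the motor pair given next, were named after their values had been seen, so the ratios carry no test.

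**Figure D3:**
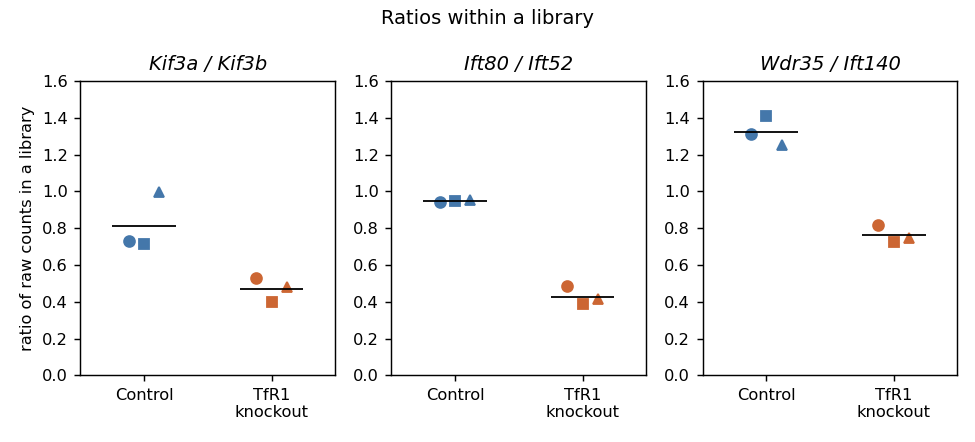
Ratio of the raw counts of 2 genes within each library (y axis, no unit), for 3 pairs, with a symbol for each replicate and a line at the mean of each group of 3. In all 3 panels the TfR1 knockout libraries lie below the Control libraries; the Ift80 to Ift52 ratio averages 0.947 in Control and 0.428 in knockout libraries.

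Among the 4 motor genes, 1 was lower with DESeq2, against 7.18% of all genes. Kif3a and Kif3b encode the motor subunits that pair in heterotrimeric kinesin-2, and loss of Kif3a in tubules is known to give cystic kidneys. Kif3a (chr11:53380881-53417746) had 889, 906 and 1017 counts in Control kidneys and 715, 604 and 682 in TfR1 knockout kidneys, with no overlap. Its log2 fold change was -0.49 (SE 0.16, DESeq2 adjusted p 0.0236, edgeR 0.0752). It ran from -0.54 to -0.42 without single libraries, and the call held only without TfR1 knockout kidney 1. Kif3b had 1168 ± 129 counts in Control and 1425 ± 76.1 in TfR1 knockout kidneys, a log2 fold change of 0.29 (SE 0.16) that did not pass (DESeq2 adjusted p 0.243, edgeR 0.228), the highest of the 39. The ratio of Kif3a to Kif3b reads was between 0.715 and 0.995 in Control and between 0.402 and 0.529 in TfR1 knockout libraries. Dync2h1, the heavy chain of dynein-2, had a log2 fold change of -0.40 and passed without TfR1 knockout kidney 2 and with total-count scaling. Kif17, a homodimeric kinesin-2, had the lowest level of the 39 per kilobase of exon (4.82 normalized counts per kb), and a mean of 22.1 counts leaves its log2 fold change of -0.25 with an SE of 0.57.

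Among the nuclear factors, Glis2 (chr16:4594713-4624924), a zinc finger transcription factor mutated in nephronophthisis, had the highest level of the 39 genes per kilobase, 819 normalized counts per kb. It had 5818, 6354 and 2493 counts in Control kidneys 1 to 3 and 2609, 1641 and 2575 in TfR1 knockout kidneys 1 to 3. Control kidney 3 lay at the level of the knockout kidneys, so the groups overlapped. The log2 fold change was -1.10 (SE 0.37, DESeq2 adjusted p 0.0234, edgeR 0.11), and it was -1.42 without Control kidney 3 and called. The call was lost without Control kidney 1, Control kidney 2, TfR1 knockout kidney 2 or TfR1 knockout kidney 3, with the change nearest 0 at -0.87. Zfp423, the mouse counterpart of ZNF423, did not pass, with a log2 fold change of -0.44 (SE 0.37).

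The inversin compartment had 0 of 3 genes called. Invs, which encodes inversin, was its lowest with 350 ± 20.6 counts in Control and 221 ± 85.9 in TfR1 knockout kidneys (log2 fold change -0.66, SE 0.31, DESeq2 adjusted p 0.141). Nek8, the kinase that inversin anchors there, was its highest with a log2 fold change of 0.12 (SE 0.24). Anks6, the activator of Nek8, lay between them at -0.32. Neither centrosome gene passed: Sdccag8 had a log2 fold change of -0.34 (SE 0.16) and Cep164, of the distal appendages that dock the basal body, -0.22 (SE 0.19). Over the 14 of the 39 listed here as nephronophthisis genes, 3 were lower (Glis2, Cep290 and Rpgrip1l), against 7.18% of all genes. Of the 14, 13 had a log2 fold change below 0, against 49.3% of all genes.

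Levels spanned a wide range. After Glis2, the highest per kilobase of exon were Ift20 at 539, Ift52 at 294, Ift27 at 287 and B9d2 at 233 normalized counts per kb. The lowest after Kif17 and Nphp4 were Rpgrip1l at 20.1, Tmem67 at 23 and Cep290 at 23.1. Genes that were called thus came from both ends of the range. Exons of 11 of the 39 genes overlap another gene, and 1 shares more than 10% of its exon bases, Tctn1 with 20.4% in Hvcn1. How reads in shared exons were assigned is not given in the sources used here.

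Further genes of the same machinery were counted from lists of their own. Of 15 other IFT genes tested, 8 were lower and 0 higher, against 7.18% and 7.74% of all genes. Their median log2 fold change was -0.46. The lowest were Ttc30a1 (-1.34, SE 0.44) and Ttc30b (-1.21, SE 0.42). They are closely related copies, and reads that map to both would not be in unique counts, so their values are uncertain; how many such reads there were was not tested. TfR1 knockout kidney 2 was the lowest for both, at 25.6 and 55 normalized counts. Wdr34, an intermediate chain of dynein-2 (-0.90, SE 0.25), and Cluap1, of IFT-B (-0.46, SE 0.17), were the highest that passed. edgeR called 2 of the 15 lower, against 2.8% of all genes. Of 18 other transition zone and Joubert genes counted here, 3 were lower and 0 higher, against the same 7.18% and 7.74%. The 3 were Tmem218 (-0.98, SE 0.32), Tmem17 (-0.97, SE 0.31) and Tmem138 (-0.73, SE 0.24). The median over the 18 was -0.23. edgeR and limma-voom each called 0 of the 18 lower at an adjusted p under 0.05. At an unadjusted p under 0.05, 4 of the 18 were lower with edgeR, against 1985 of all 15308 genes. Of 7 further nephronophthisis genes counted here, Dcdc2a (0.74, SE 0.25) and Xpnpep3 (0.67, SE 0.23) were higher, 0 were lower, and the median was 0.29. Neither passed with edgeR (adjusted p 0.0945 and 0.109) or limma-voom (0.108 and 0.115), and with DESeq2 they passed in 1 and 0 of the 6 fits without a library. All 7 of these further genes had a log2 fold change above 0. Every TfR1 knockout kidney was above every Control kidney for 4 of the 7, against 16.9% of all genes.

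Other ciliary lists were mixed, and their DESeq2 counts stand beside 7.18% of all genes lower and 7.74% higher. Of 7 genes of the distal appendages and early ciliogenesis, Ccp110 (log2 fold change -0.67, SE 0.17) and Cby1 (-0.53, SE 0.19) were lower, and edgeR called 1 of the 7. Of 6 transcription factors tested (Foxj1 and members of the RFX family, not all of them known as ciliary), Rfx2 was lower (-1.09, SE 0.39, DESeq2 adjusted p 0.0348, edgeR 0.12). Among 13 motile cilium markers tested, the axonemal dyneins Dnah9 and Dnah11 were lower and the median was -0.01. Dnah9 had 59.4, 48.2 and 53.8 counts in Control kidneys and 0.994, 1.28 and 1.89 in TfR1 knockout kidneys. In the hedgehog pathway, which signals through the cilium, 1 of 15 genes was lower and 1 higher, near the shares of all genes. Sufu, an inhibitor of Gli factors, was lower (-0.72, SE 0.25) and the ligand Ihh was higher (1.48, SE 0.34). The other 13 genes did not pass, and the median was -0.06. edgeR called Ihh (adjusted p 0.0425) and not Sufu (0.086).

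Genes of 2 related groups lay on either side. The 13 Bardet-Biedl genes encode a cargo adaptor that rides on IFT and its chaperones. Of the 13, 7 were lower and 0 higher with DESeq2, against 7.18% and 7.74% of all genes. Their median log2 fold change was -0.64, with all 13 below 0, against 49.3% of all genes. edgeR called 2 of the 13 lower and limma-voom 3, against 2.8% and 2.98% of all genes. Of 11 polycystic and tuberous sclerosis genes, 0 passed, with a median of 0.08. The difference between these groups and the 39 genes was not tested.

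**Figure D4:**
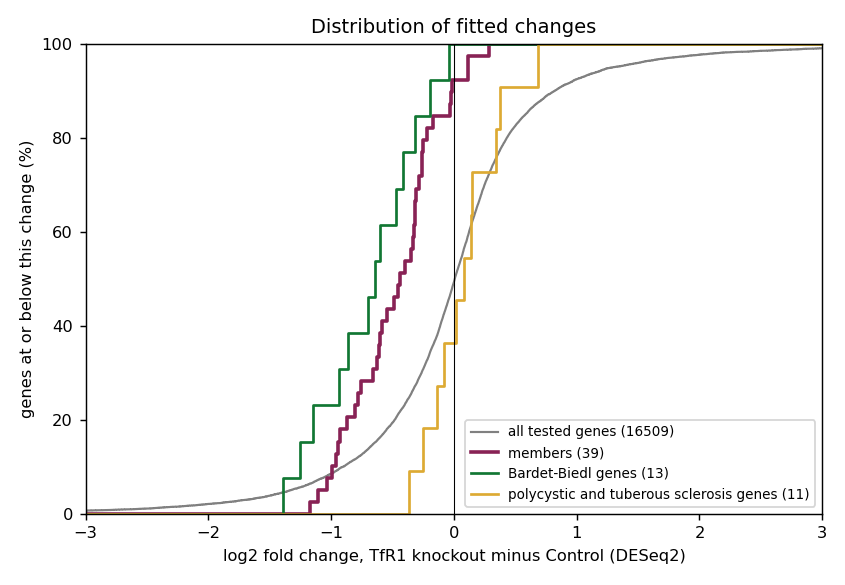
Share of genes (y axis, percent) at or below each fitted log2 fold change (x axis, TfR1 knockout minus Control, DESeq2), for the 39 genes, 13 Bardet-Biedl genes, 11 polycystic and tuberous sclerosis genes and all 16509 tested genes; the x axis is limited to 3 on either side of 0. The curve of the 39 genes crosses 50% at -0.44 and that of all genes at 0.01.

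Summed markers of some kidney cell types differed between the groups in the same libraries, while the ranges of others overlapped. All 4 thick ascending limb genes were lower, and their sum was 45859 to 91095 normalized counts in Control and 12082 to 24231 in TfR1 knockout kidneys. All 3 distal convoluted tubule genes were lower (11272 to 22529, and 736 to 1783). Of 4 genes of proliferating cells 3 were lower (6421 to 8227, and 2332 to 3987), and of 6 macrophage genes 4 were higher (2201 to 3441, and 4996 to 7538). Of 6 proximal tubule genes 2 were lower and 1 higher (41354 to 93845, and 38782 to 58668), and of 6 stromal genes 2 were lower (65365 to 130981, and 33079 to 65104). Of 4 principal cell genes 2 were higher (5043 to 10963, and 24812 to 58350). Of 4 intercalated cell genes 2 were lower (4702 to 6249, and 4006 to 4709). Podocyte genes had 1 of 5 higher (10387 to 15933, and 14710 to 17931) and nephron progenitor genes 1 of 3 (44.1 to 124, and 101 to 141). Endothelial genes had 0 of 5 called (12658 to 20500, and 14301 to 16607). Over all genes, 7.18% were lower and 7.74% higher with DESeq2. With edgeR, 3 thick ascending limb, 3 distal convoluted tubule and 3 proliferating cell genes were lower, 3 macrophage genes were higher, and 0 stromal genes passed. It also called 1 proximal tubule gene lower and 1 higher, and 2 intercalated cell genes lower. Among principal cell, podocyte and nephron progenitor genes it called 1 of each higher. Over all genes, edgeR called 2.8% lower and 3.22% higher. At an unadjusted p under 0.05, 2 of 6 stromal genes were lower with edgeR, against 1985 of all 15308 genes. The part of these cell types in the levels of the 39 genes was not tested.

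**Figure D5:**
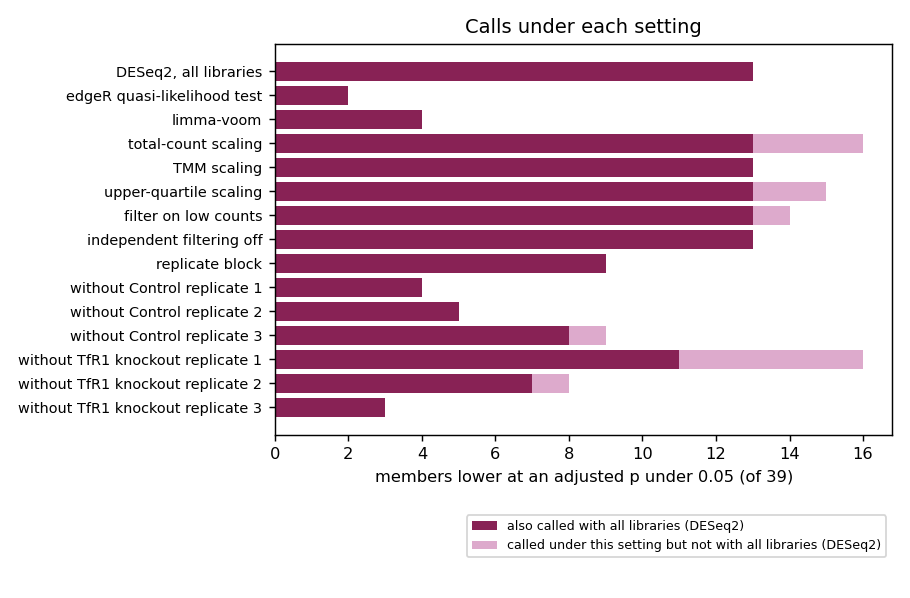
Number of the 39 genes lower at an adjusted p under 0.05 (x axis, from 0) with DESeq2 on all libraries, with other tests, scalings and filters, with the replicate number as a block and without each library; dark bars are genes also called by DESeq2 on all libraries and light bars are further genes. The count is 13 with DESeq2, 2 with edgeR and 4 with limma-voom, and from 3 to 16 without single libraries. The share of all genes called lower ran from 3.59% to 10.5% without single libraries.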

How the data were processed

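Poly-A RNA of whole kidneys was sequenced as single-end reads. The authors trimmed the reads with Trimmomatic, aligned them with TopHat2 2.0.11 to mm9, kept uniquely mapped reads and counted them per gene with HTSeq; the deposited values are these raw counts. The annotation, strand setting and counting mode are not given in the sources used here. Groups and replicate numbers came from the labels. Nothing in the labels says that the samples of a group came from separate litters, so p-values measure the spread between these samples.

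The genes, lists and tests were chosen with earlier results of these data known. DESeq2 1.42.0 in R 4.3.3 (Wald test, median-ratio size factors, no covariate, independent filtering at 0.05, Benjamini-Hochberg adjustment) was fitted to all 24422 genes, and 16509 had an adjusted p. A call is an adjusted p under 0.05. Alternatives were edgeR 4.0.16, limma 3.58.1 with voom, 3 other scalings, a minimum of 10 counts in 3 libraries, no independent filtering, a block for the replicate number, and fits without each library in turn. The code was tested on simulated data. Values are given in each library for called genes, and singly for others where they were the highest or lowest of a role or among the 5 highest or lowest per kilobase. From another list at most 4 called genes are named, the 2 lowest and 2 highest. Iqcb1, Ift57, Dync2h1 and Anks6, and the library values of Dnah9, were added after their values had been seen. One further gene of the lists is not reported here, and the lists' counts and medians leave it out. Positions are mm9 (GENCODE); promoters are RefSeq on GRCm38.p6 and were used only for sequence.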

Additional observations from a re-analysis of the deposited data

How the results depend on the processing

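Under every alternative tried, 0 of the 39 genes were higher at an adjusted p under 0.05. The 13 lower genes became 2 with edgeR (which called 921 of all genes, against 2463 with DESeq2) and 4 with limma-voom (941). They became 3 to 16 when single libraries were left out. Without Control kidney 1 they were 4 and without Control kidney 2 they were 5, against 3.59% and 3.82% of all genes. Without TfR1 knockout kidney 2 they were 8 and without kidney 3 they were 3, against 5.39% and 4.12% of all genes. Without TfR1 knockout kidney 1 they were 16, against 10.5% of all genes. With all libraries 7.18% of all genes were lower. The 3 genes lower by at least 2-fold became 1 with edgeR, 6 with total-count scaling and 5 with upper-quartile scaling, and 1 to 8 without single libraries. Over all genes, the 736 lower by at least 2-fold became 353, 829 and 792 with these settings, and 498 to 1146 without single libraries. Total-count scaling moved the median of all genes to -0.10 and that of the 39 genes to -0.54. The 39 genes' median log2 fold change kept its sign throughout, from -0.56 to -0.38 without single libraries. For the 13 called genes taken singly, 118 of 182 results under an alternative kept the call, 64 lost it and 0 changed direction. With a replicate block, 9 genes were lower (B9d2, Ift74, Kif3a and Tmem216 were lost) and 4 by 2-fold. Over all genes, 6.73% were lower with the block and 750 genes were lower by 2-fold. Same-numbered samples deviated with correlations of -0.04, 0.05 and 0.09, so the numbers were not taken as pairs. Of the 39 genes, Kif17 had the lowest mean, 22.1 counts, where counting error is large.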
